A study of Mus musculus with 6 samples.

Results

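The 6 genes Mest, Sfrp5, Bmp3, Npr3, Trp53inp2 and Sncg, known as markers of fat expansion or as genes of the fat cell, were examined in abdominal white adipose tissue (WAT) of hNAG-1 and wild-type (WT) female mice. They were chosen by name, with the genotype difference in these arrays already known, so their differences are described here and not tested. They are 6 of 21067 genes kept, and were read by 8 of 41174 non-control probes; every one of the 8 was well above background on all 6 arrays. hNAG-1 mice carry a transgene for human NAG-1, also called GDF15, a circulating protein of the TGF-beta superfamily, and the transgene is expressed in most tissues, WAT included. All mice were C57/BL6 females 30 wk of age, the hNAG-1 mice were of 1 transgenic line, and WT mice carried no transgene. Each genotype had 3 arrays, each hybridised with the RNA of 2 pooled mice, labelled with Cy3, so that 6 mice per genotype were sampled. Pools held different mice, and any p-value below therefore measures the spread between pools. The methods of the study name an Affymetrix array, whereas the scanner files come from single-colour Agilent arrays of 45018 spots.

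Values are log2 of the processed signal minus log2 of the 75th percentile of that array, so that 0 is the level of the 75th percentile probe and a step of 1 is a doubling. The 75th percentile ranged from 912.6 to 969.6 in WT and from 628.8 to 858.2 in hNAG-1 mice, and 71.2% to 82.0% of spots were well above background. The 3 WT arrays and hNAG-1 replicate 1 were on 1 slide. The remaining hNAG-1 pools, replicates 2 and 3, shared a slide without any WT array. Values from the mixed slide alone (3 WT arrays and 1 hNAG-1 array) are therefore given beside many of the results, though not beside all. The defining adipocyte markers were measured on every array, Adipoq at 8.05 to 8.29 in WT and 8.13 to 8.36 in hNAG-1 mice. In bulk tissue, fewer cells of a type and less RNA per cell cannot be told apart.

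When white fat grows, adipocytes enlarge by storing triglyceride and new adipocytes form from precursors in the stroma. Mest, an imprinted gene expressed from the paternal allele, encodes a protein of the alpha/beta hydrolase family, and its mRNA is known to be high in expanding mouse fat. Sfrp5 is a secreted frizzled-related protein that binds WNT ligands outside the cell. Bmp3 is a member of the bone morphogenetic protein (BMP) family that is known to oppose other BMPs. Npr3 is the clearance receptor that removes natriuretic peptides, hormones that drive lipolysis in fat. Trp53inp2 takes part in autophagy and is a nuclear receptor coactivator. Sncg, gamma-synuclein, is made in adipocytes and in peripheral neurons.

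The 60-base probes of 3 of the genes are shown because every value given for those genes is the brightness of that 1 sequence. The Sfrp5 probe lies at chr19:42092520-42092579 and the Bmp3 probe at chr5:98094652-98094711 on mouse build mm7, the build of the array design. The Sncg probe covers 1094 bases, chr14:31807113-31808206, so its 60 bases are not contiguous in that genome.

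Sfrp5 probe: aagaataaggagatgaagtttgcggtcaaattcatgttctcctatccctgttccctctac

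Bmp3 probe: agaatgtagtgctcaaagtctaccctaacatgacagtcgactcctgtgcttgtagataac

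Sncg probe: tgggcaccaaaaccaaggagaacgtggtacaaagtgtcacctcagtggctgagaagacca

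Mest was read by 1 probe at chr6:30680425-30680484, Trp53inp2 by 1 at chr2:155130509-155130568, and Npr3 by 3 between chr15:11900163-11900222 and chr15:11905169-11905228, all mm7. On GRCm38, the RefSeq genes lie at chr6:30733506-30748466 for Mest, chr19:42197971-42202252 for Sfrp5, chr5:98854415-98884053 for Bmp3, chr15:11839896-11907837 for Npr3, chr2:155381811-155389847 for Trp53inp2 and chr14:34370274-34374669 for Sncg. No 2 of the genes share a chromosome.

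Mest, Sfrp5 and Sncg are the genes without overlap between genotypes that have a RefSeq promoter window (GRCm38.p6). The 250 bases before a RefSeq start of each are shown, so that a reader can set their start regions side by side. Each is written 5′ to 3′ on the strand of the gene, and capitals mark a GGGCGG on either strand, the letters of the GC box. The Mest stretch is chr6:30737800-30738049 on the plus strand, the Sfrp5 stretch chr19:42202253-42202502 on the minus strand and the Sncg stretch chr14:34374670-34374919 on the minus strand. The Mest stretch precedes an inner start and lies inside the gene span given above. The window at the outer Mest start, chr6:30733256-30733555, is not printed.

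Mest: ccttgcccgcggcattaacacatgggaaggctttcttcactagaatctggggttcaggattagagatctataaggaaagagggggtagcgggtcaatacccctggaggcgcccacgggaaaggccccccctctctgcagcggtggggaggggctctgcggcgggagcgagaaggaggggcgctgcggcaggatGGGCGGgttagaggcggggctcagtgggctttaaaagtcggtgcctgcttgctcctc

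Sfrp5: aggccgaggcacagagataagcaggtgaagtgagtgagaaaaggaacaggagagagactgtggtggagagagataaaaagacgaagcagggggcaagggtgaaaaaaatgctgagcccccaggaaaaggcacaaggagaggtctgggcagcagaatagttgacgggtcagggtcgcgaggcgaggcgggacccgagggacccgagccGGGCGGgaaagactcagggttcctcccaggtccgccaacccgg

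Sncg: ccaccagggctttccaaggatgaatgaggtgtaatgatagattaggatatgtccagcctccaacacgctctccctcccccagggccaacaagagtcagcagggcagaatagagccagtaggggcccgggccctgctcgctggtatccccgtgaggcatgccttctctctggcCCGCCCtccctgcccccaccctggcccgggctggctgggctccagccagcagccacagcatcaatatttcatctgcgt

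Full windows of 300 bases, from 250 before to 50 after the start, were searched on both strands for 4 motifs, in 32851 windows. GGGCGG was in 35.7% of all windows and in those of Mest, Sfrp5, Trp53inp2 and Sncg. CCAAT, in 37.4% of windows, was in those of Sfrp5, Npr3 and Trp53inp2. The letters TATAAA of the TATA box, in 13.6% of all windows, and the E-box CACGTG, in 7.15%, had no match in any window of these genes. The count of CG dinucleotides ran from 6 in the Npr3 window to 30 in that of Trp53inp2, against a median of 7 over all windows. Mest has 3 windows, with 8, 17 and 17 CG, and Sfrp5 and Sncg had 15 and 9. The motif matches are a description of these letters and are not sites of binding.

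Mest, Sfrp5, Bmp3 and Sncg were lower in the hNAG-1 mice than in WT mice, by 2.4 to 3.93 times, and no hNAG-1 array reached the WT arrays. Npr3 and Trp53inp2 had lower means in hNAG-1 mice, and their arrays overlapped. Thus 4 of 6 genes were lower without overlap, beside 6.57% of all genes tested (13.7% were higher without overlap), and 0.242% of all genes lay at -1.2 or lower without overlap, as these 4 did. A total of 6 of 6 had a difference below 0, beside 41.0% of all genes. These counts carry no weight as evidence, since the genes were chosen with the contrast known. The bound of -1.2 also lies close to the smallest of the 4 differences (-1.26, Bmp3), so that cut is not independent of these genes. The median difference of the 6 was -1.27, against 0.063 for all 21067 genes. The median of the 6 relative to the WT mean was -0.28, -0.16 and 0.45 in WT replicates 1, 2 and 3 and -1.32, -1.31 and -1.18 in hNAG-1 replicates 1, 2 and 3.

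**Figure D1:**
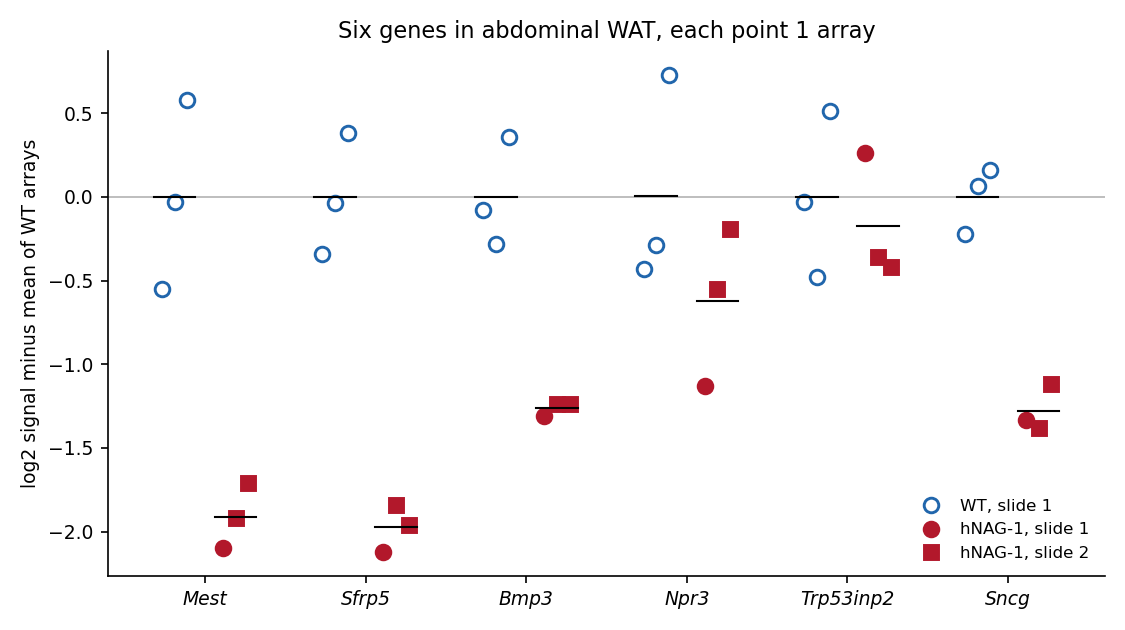
Log2 signal of each gene minus its mean over the 3 WT arrays (y axis) for the 6 genes (x axis). Each point is 1 array (open, WT; filled, hNAG-1; square, the slide without WT), and the short lines are means of 3 arrays; the hNAG-1 arrays of Mest, Sfrp5, Bmp3 and Sncg lie below all WT arrays, whereas those of Npr3 and Trp53inp2 overlap them.

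Mest had log2 values of 3.25, 3.77 and 4.38 in WT replicates 1, 2 and 3, and of 1.69, 1.88 and 2.08 in hNAG-1 replicates 1, 2 and 3. The WT mean was 3.80 ± 0.566 and the hNAG-1 mean 1.88 ± 0.196 (SD, n = 3), a difference of -1.91 ± 0.302 (SE), or 3.76-fold lower. The lowest WT array stood 1.16 above the highest hNAG-1 array, and the spread was wider among WT than among hNAG-1 pools. The processed signal was 9211, 12408 and 19441 in WT and 2774, 2615 and 2666 in hNAG-1 mice. The hNAG-1 pools were nearly equal in raw signal, whereas WT replicate 3 was more than 1 log2 unit above WT replicate 1. Among all genes Mest ranked 130 from the lowest difference.

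Sfrp5 gave log2 values of -2.32, -2.02 and -1.61 in WT and of -4.10, -3.82 and -3.94 in hNAG-1 mice. The means were -1.98 ± 0.359 and -3.96 ± 0.139 (SD, n = 3), with a difference of -1.97 ± 0.208 (SE), or 3.93-fold lower. All hNAG-1 arrays lay at least 1.5 below the lowest WT array, the widest gap of the 6 genes, and Sfrp5 ranked 121 of all genes. The probe was dim, with processed signals of 193.9, 224.8 and 307.1 in WT and 50.02, 50.26 and 40.86 in hNAG-1 mice. Before subtraction the hNAG-1 spots read 108, 105 and 93.4, over local backgrounds of 69, 59 and 59. With normexp background correction, which adds an offset before taking logs, the difference was -0.99, so its size depends on how the background was treated while the direction did not.

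Bmp3 had log2 values of 1.96, 1.75 and 2.4 in WT and of 0.73, 0.79 and 0.80 in hNAG-1 mice. The 3 hNAG-1 pools lay close together, with a mean of 0.77 ± 0.039, beside 2.03 ± 0.33 in WT (SD, n = 3). The difference was -1.26 ± 0.185 (SE), or 2.4-fold lower, with a gap of 0.95 between the nearest arrays. The processed signal was 3765, 3069 and 4921 in WT and 1421, 1234 and 1092 in hNAG-1 mice.

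Sncg had log2 values of 4.65, 4.93 and 5.03 in WT and of 3.54, 3.49 and 3.75 in hNAG-1 mice. The WT mean was 4.87 ± 0.197 and the hNAG-1 mean 3.59 ± 0.137 (SD, n = 3), a difference of -1.28 ± 0.149 (SE), or 2.42-fold lower. The nearest arrays stood 0.90 apart. The processed signal ran from 24322 to 30500 in WT and from 7986 to 10005 in hNAG-1 mice. Sncg had the smallest SE of the 6 genes, and WT replicates 2 and 3 were near each other.

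Npr3 was measured by 3 probes, and all 3 had a lower hNAG-1 mean with overlapping arrays. The brightest gave log2 values of 3.91, 4.05 and 5.07 in WT and of 3.21, 3.80 and 4.15 in hNAG-1 mice, with means of 4.34 ± 0.635 and 3.72 ± 0.475 (SD, n = 3) and a difference of -0.62 ± 0.392 (SE). The other 2 probes gave differences of -0.79 ± 0.358 and -0.75 ± 0.348 (SE). On each probe WT replicate 3 was the highest of the 6 arrays, and hNAG-1 replicate 3 was within the WT range. Without WT replicate 3 the difference on the brightest probe was -0.26, and without hNAG-1 replicate 1 it was -0.37. On the mixed slide it was -1.13.

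Trp53inp2 had log2 values of 5.22, 4.77 and 5.76 in WT and of 5.51, 4.89 and 4.83 in hNAG-1 mice. The means were 5.25 ± 0.498 and 5.08 ± 0.375 (SD, n = 3), and the difference of -0.17 ± 0.314 (SE) was smaller than its error. The highest hNAG-1 array lay above 2 of the WT arrays. The sign turned to 0.26 on the mixed slide and to 0.083 without WT replicate 3, so no direction can be given for Trp53inp2.

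**Figure D2:**
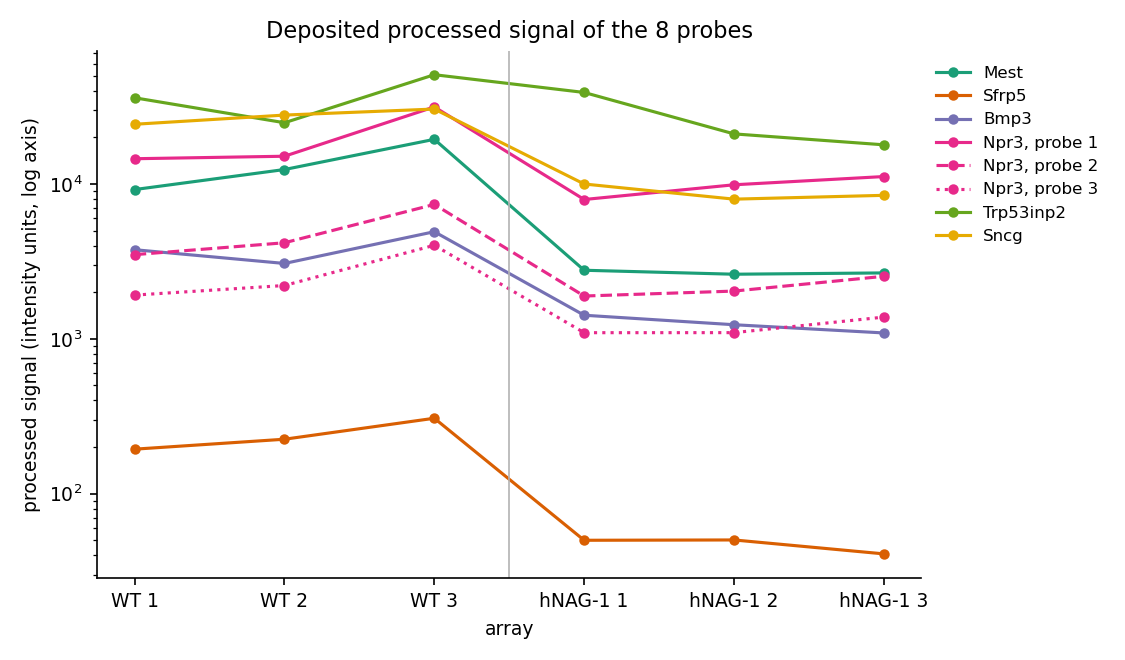
Deposited processed signal, before scaling between arrays, on a log axis (y) for the 8 probes on the 6 arrays (x), with WT left of the grey line and hNAG-1 right of it. Each line joins the values of 1 probe; all 8 probes are highest in WT replicate 3, and heights of different probes are not comparable.

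WT replicate 3 was the highest WT array for 6 of 6 genes, whereas it was the highest for 33.7% of all genes. The lowest WT array was replicate 1 in 4 of the genes and replicate 2 in 2. Among hNAG-1 arrays, replicate 1 was lowest in 4 and replicate 3 highest in 4. The SD was larger in WT than in hNAG-1 pools for 6 of 6 genes, against 53.1% of all genes. Leaving out 1 array cannot make separate groups overlap, so Mest, Sfrp5, Bmp3 and Sncg stayed lower without overlap by construction. The share of all genes lower without overlap was then 8.59% to 13.5%. Npr3 joined these 4 genes without hNAG-1 replicate 3. Without WT replicate 3 the differences were -1.62 for Mest, -1.78 for Sfrp5, -1.08 for Bmp3 and -1.2 for Sncg. On the mixed slide they were -2.10, -2.12, -1.31 and -1.33.

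Mest and Sfrp5 had nearly the same pattern over the 6 arrays. The measure was the root-mean-square difference between log2 values centred on the mean of the 6 arrays, and it was 0.157 for this pair, where Mest itself varied by 1.02 around its mean. None of 14867 candidate genes with a symbol, well above background on all arrays, lay nearer to Mest than Sfrp5 did. Under normexp the difference was -1.91 for Mest and -0.99 for Sfrp5, so this likeness depends on how the background was treated. Bmp3 and Sncg differed by 0.19, with 5 candidates nearer to Bmp3. The genes of both pairs were chosen with their lower level in hNAG-1 mice known, and that drop enters the measure. These distances therefore carry no weight as evidence. Mest lay 0.677 from Npr3 and 0.968 from Trp53inp2, with 112 and 3305 candidates nearer. Among other genes, the nearest to Mest were Timp4, an inhibitor of matrix metalloproteinases (0.267), D430019H16Rik (0.302), Unc79, a part of the NALCN sodium leak channel complex (0.318), Prr32 (0.34) and Ranbp3l (0.386). The nearest to Sfrp5 were D430019H16Rik (0.256), Timp4 (0.285), Unc79 (0.35), Ranbp3l (0.427) and Abcg1, a sterol exporter (0.431). The nearest to Bmp3 were Glrb, a glycine receptor subunit (0.163), Emp1 (0.171), C130026I21Rik (0.173), Ehd3, an endocytic trafficking protein (0.187), and Slc9b2, a sodium/proton exchanger (0.19). All of these were picked for their likeness to genes already known to be lower in hNAG-1 mice, so their own differences are a description: -1.60 for Timp4, -1.22 for Abcg1 and -1.04 for Emp1, for example. Differences of the dim genes depended on the background correction, with -1.88 against -0.67 under normexp for Unc79 and -0.98 against -0.24 for Glrb.

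**Figure D3:**
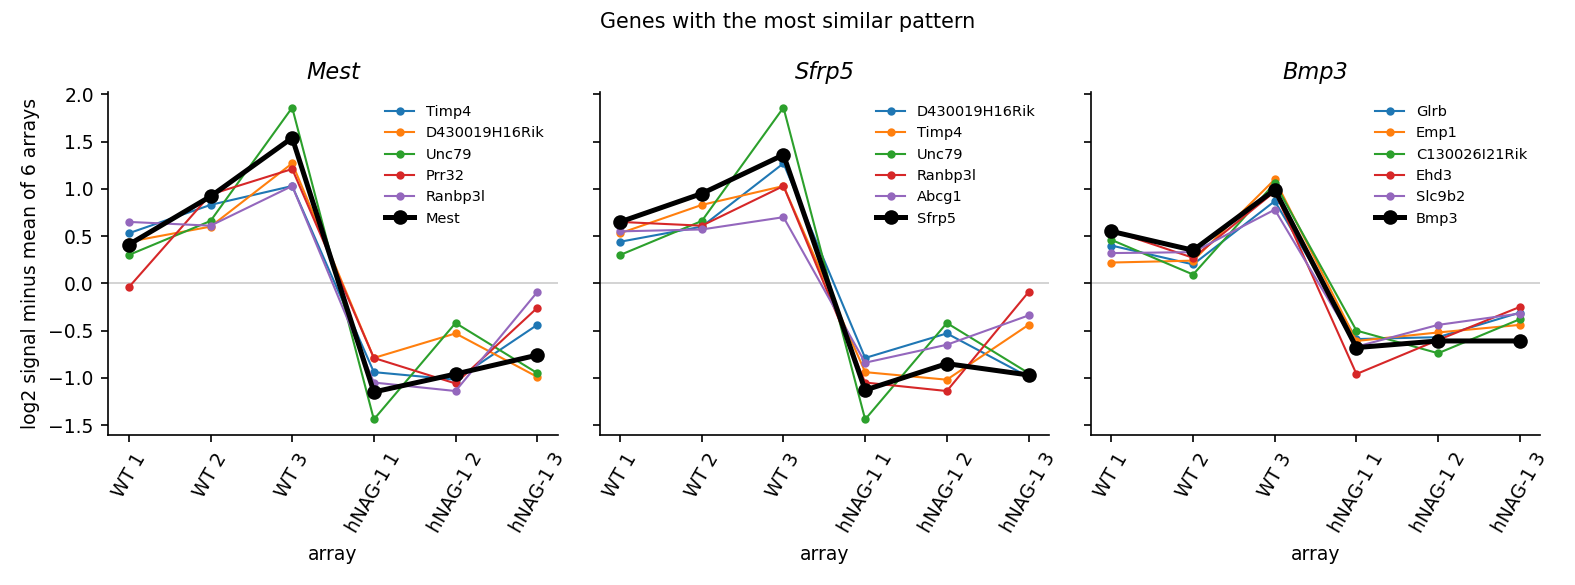
Log2 signal minus its mean over the 6 arrays (y axis) against array (x axis) for Mest, Sfrp5 and Bmp3 (thick black lines) and for the 5 genes of the most similar pattern to each (thin lines). All lines drop between the WT and the hNAG-1 arrays, by the choice of the genes.

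Genes around the 6 were taken in 12 lists and compared with limma over all genes, without the 6 genes themselves. With Benjamini-Hochberg adjustment, limma called 0.0% of genes in either direction, that is 0 genes, whereas 860 genes (4.08%) were lower and 1781 (8.45%) higher at an unadjusted p of 0.05. The trended and robust variance model of limma called 107 higher and 23 lower, and normexp 39 higher and 15 lower. The numbers below are therefore counts and values, and no gene of a list is said to have changed.

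In the WNT pathway, the other secreted antagonists had differences from -0.58 to 0.96, none as large as that of Sfrp5, which was chosen with its drop known. Of 9 measured of 12, 3 had a higher and 6 a lower hNAG-1 mean, 1 each at an unadjusted p of 0.05, with a median of -0.19. Sfrp4, of the same family as Sfrp5, had values of 2.23, 1.91 and 2.16 in WT and of 1.61, 1.63 and 1.33 in hNAG-1 mice, without overlap, and a difference of -0.58 ± 0.147 (SE, limma adjusted p = 0.259). Sfrp1 had a difference of -0.20, and -0.54 on its dimmer probe. Sfrp2 and Frzb, also of this family and named after their values were seen, had -0.19 and -0.53, with overlapping arrays. Dkk2, which blocks the WNT co-receptor, had 0.96 ± 0.377 (SE, limma adjusted p = 0.39). Dkk1, Dkk4 and Wif1 were not kept as well above background. Of 9 WNT ligands measured of 11, 5 were higher and 4 lower, 2 of them lower at an unadjusted p of 0.05 (Wnt11 at -0.40 and Wnt5b at -0.35), and Wnt5a stood at 0.21. Their median of 0.067 changed sign in 6 of 17 alternatives, among them the fixed slide block and the mixed slide, which are the same estimate.

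In the BMP pathway, receptors and targets had mostly lower means in hNAG-1 mice, by less than Bmp3. Of 9 ligands measured of 10, 7 were lower and 2 higher, none at an unadjusted p of 0.05, with a median of -0.14 and with Bmp8a at -0.79, Bmp4 at -0.27 and Bmp6 at -0.19. Bmp4 turned to 0.11 on the mixed slide, and Bmp8a stood at -0.30 without WT replicate 1. Of 8 receptors, 5 were lower and 3 higher, and 3 were lower at an unadjusted p of 0.05. These were Acvr1b at -0.47 ± 0.13 (limma adjusted p = 0.277), Bmpr1a, a type I BMP receptor, at -0.34 ± 0.129 (limma adjusted p = 0.375) and Acvr1 at -0.41 ± 0.157 (limma adjusted p = 0.386), all SE. On the mixed slide Acvr1 stood at -0.11. The receptor median was -0.22, and -0.1 on the mixed slide. All 5 target genes had lower means, with a median of -0.43. Smad7, the inhibitory SMAD, had values of -1.87, -1.51 and -1.68 in WT and of -2.82, -2.56 and -2.16 in hNAG-1 mice, with no overlap and a difference of -0.83 ± 0.204 (SE, limma adjusted p = 0.251). Id1 had -0.43 and Smad6 -0.54, and the arrays of both overlapped between genotypes. The 7 measured antagonists of 8 divided into 3 higher and 4 lower, with Fst, which binds activins, at 0.51, Nog at -0.73 and Twsg1 at -0.20. On the mixed slide these stood at 0.83, -1.47 and 0.18, and Nog was -0.36 without hNAG-1 replicate 1 and -0.24 under normexp. Their median of -0.12 changed sign in 4 of 17 alternatives, among them the fixed slide block and the mixed slide, which are the same estimate.

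Of the natriuretic peptide system around Npr3, 9 of 10 genes were measured, 3 higher and 6 lower, none at an unadjusted p of 0.05 in limma. The median was -0.26, and 0.041 without WT replicate 2. Prkg1, the cGMP-dependent kinase that acts after the signalling receptors Npr1 and Npr2, had a difference of -0.34. Nppb, a peptide that Npr3 clears, had 0.62 (0.082 under normexp), and Furin, a protease, 0.37 (0.063 on the mixed slide). The signalling receptors Npr1 and Npr2, named after their values were seen, had -0.57 ± 0.314 and -0.26 ± 0.149 (SE).

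The 15 autophagy genes around Trp53inp2 lay close to all genes, 10 higher and 5 lower, with a range of -0.17 to 0.30 and none at an unadjusted p of 0.05 in limma. Their median was 0.12, and -0.008 under quantile normalization. Sqstm1, the cargo receptor p62, had 0.30 ± 0.124 (SE, limma adjusted p = 0.401), Atg5 0.23 and Map1lc3b 0.16. Map1lc3b turned to -0.008 under quantile normalization. Trp53inp2 itself, at -0.17, lay at the lower end of that range.

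Around Sncg, its family member Sncb stood at 0.45 and the synuclein partner Sncaip at -0.29, neither as low as Sncg. The other Sncaip probes gave -0.54 ± 0.113 and -0.35 ± 0.208 (SE). Sncb was dim, with a WT mean of -5.49, and stood at -0.31 on the mixed slide and 0.1 under normexp.

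Among imprinted genes, the group Mest belongs to, Nnat and Peg3 had differences near that of Mest and most did not. Of 17 measured of 18, 7 were higher and 10 lower, 1 and 3 of them at an unadjusted p of 0.05, with a median of -0.042. Nnat, neuronatin, had values of 3.82, 4.63 and 4.09 in WT and of 2.23, 1.37 and 2.46 in hNAG-1 mice, without overlap, a difference of -2.16 ± 0.351 (SE, limma adjusted p = 0.184). Peg3, a zinc finger gene, had values of 0.21, 0.42 and -0.55 in WT and of -1.83, -1.90 and -1.28 in hNAG-1 mice, a difference of -1.70 ± 0.309 (SE, limma adjusted p = 0.191). Another Peg3 probe also gave -1.70, and the remaining probe 0.056. WT replicate 3, the highest WT array for Mest, was the lowest for Peg3, so these genes did not follow the same order among WT pools. Cdkn1c, an inhibitor of the cell cycle, was in the other direction, 0.55 ± 0.122 (SE, limma adjusted p = 0.229). Peg10 was not kept.

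Around Mest on chromosome 6, 5 of 7 neighbours were measured, 4 lower and 1 higher, 2 and 1 of them at an unadjusted p of 0.05. Their median was -0.33, and it was -0.96 on the mixed slide and -0.088 under normexp. Klf14, an imprinted transcription factor gene known for its link to fat and lipid traits, had values of -1.33, -0.54 and 0.06 in WT and of -1.57, -2.62 and -2.15 in hNAG-1 mice. Its arrays did not overlap, its order among WT arrays was that of Mest, and the difference was -1.51 ± 0.429 (SE, limma adjusted p = 0.288). It was -0.96 on the mixed slide and -1.04 under normexp. Copg2, a coatomer subunit gene beside Mest, stood at 0.37 ± 0.145 (limma adjusted p = 0.387), opposite to Mest. Cep41 had -0.33, and 1 of its other 3 probes had the opposite sign, at 0.54. Cpa1, an exocrine pancreas gene that was named after its values were seen, had -3.32, and -0.96 without WT replicate 2.

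Of 8 secreted proteins known to follow fat mass, 3 were higher and 5 lower, with a median of -0.26. That median was -0.077 on the mixed slide. Rbp4, the retinol carrier, had a higher mean in hNAG-1 mice, by 0.54 ± 0.145 (SE, limma adjusted p = 0.274), and Saa3 stood at -0.21. Lep, leptin, named after its values were seen, had 3.22, 3.51 and 4.77 in WT and 3.16, 2.71 and 3.16 in hNAG-1 mice. Its difference of -0.82 was -0.35 without WT replicate 3, the pool that was also highest for Mest.

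**Figure D4:**
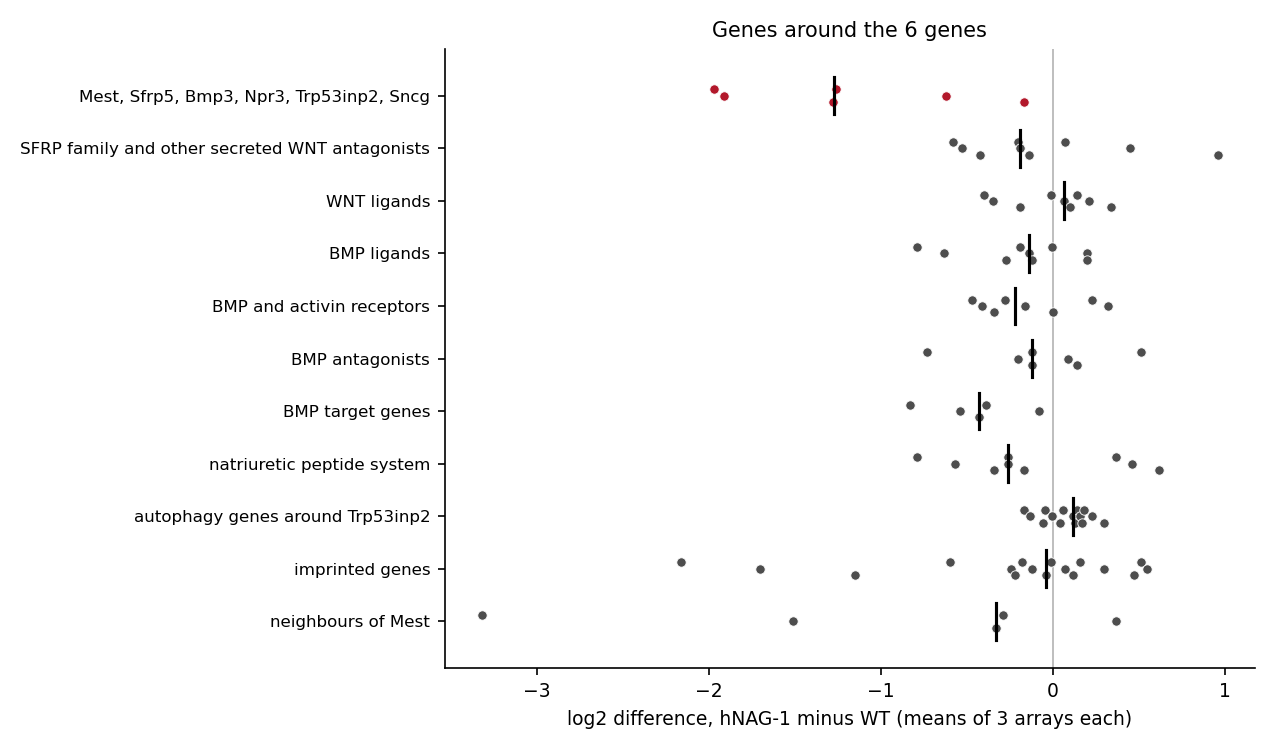
Log2 difference of hNAG-1 minus WT means (x axis) for the 6 genes (top row) and for each measured gene of 10 of the lists (rows). Each point is 1 gene and each bar the median of its row; the medians of these lists lie between -0.43 and 0.12, and that of the 6 genes, chosen with this contrast known, at -1.27.

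The 12 adipocyte markers all had higher means in hNAG-1 mice, whereas Mest, Sfrp5, Bmp3 and Sncg had lower means. Their median was 0.31 and 3 of them were higher at an unadjusted p of 0.05 in limma, against 8.45% of all genes. The 3 were Retn, resistin, at 0.64 ± 0.192 (limma adjusted p = 0.302), the glucose transporter Slc2a4 at 0.75 ± 0.233 (limma adjusted p = 0.314) and the fatty acid carrier Fabp4 at 0.39 ± 0.15 (limma adjusted p = 0.387), all SE. The summed signal of the list, in multiples of the 75th percentile, was 1940 to 2360 in WT and 2420 to 2850 in hNAG-1 mice. Over 17 alternatives the median lay between 0.083 and 0.39, and it was 0.18 on the mixed slide. Fabp4 stood at 0.11 under quantile normalization. No defining adipocyte marker was at or near 0 signal.

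Markers of stromal cells were lower on average. Of 12 fibroblast and preadipocyte markers 10 were lower, 3 at an unadjusted p of 0.05 (Ly6a at -0.53, Col1a1 at -0.62 and Col1a2 at -0.49). Other probes gave -1.13 ± 0.189 and -0.81 ± 0.303 for Col1a1 and -0.66 ± 0.175 for Col1a2 (SE). The median of the list was -0.28, with a summed signal of 556 to 649 in WT and 487 to 578 in hNAG-1 mice. All 8 macrophage markers were lower, 3 at an unadjusted p of 0.05 (Itgam at -0.37, Cd68 at -0.44 and Cd163 at -0.84), with a median of -0.26 and a summed signal of 119 to 155 in WT and 127 to 132 in hNAG-1 mice. The medians were -0.12 for the 7 endothelial markers (Vwf at -0.37) and -0.12 for the 6 mesothelial markers (Msln at -0.30), and both changed sign in some alternatives. Of 9 markers of neurons and Schwann cells, where Sncg is also made, 8 were higher and 1 lower (S100b at -0.95), with a median of 0.35 and a summed signal of 1.94 to 4.32 in WT and 1.84 to 1.94 in hNAG-1 mice. That median was 0.083 without WT replicate 3, 0.064 on the mixed slide and 0.022 under normexp. The part of these cell types in the differences of the 6 genes was not tested.

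The 5 smooth muscle markers had lower means in hNAG-1 mice, but their order among the WT arrays was not that of the 6 genes. Their summed signal was 321, 395 and 58.3 in WT replicates 1, 2 and 3 and 69.8, 56.9 and 89.8 in hNAG-1 replicates 1, 2 and 3, with a median difference of -1.66 (Acta2 at -1.79, Myh11 at -1.66, Cnn1 at -1.82). By this sum WT replicate 3 was within the hNAG-1 range, while it was the highest array for Mest, Sfrp5, Bmp3 and Sncg. The part of smooth muscle in the differences of the 6 genes was not tested. Summed skeletal muscle markers were highest in hNAG-1 replicate 2 (208) and WT replicate 1 (129), and lay between 29.9 and 66.6 elsewhere. Exocrine pancreas markers, 4 of 6 measured, summed to 9.08 in WT replicate 2 and to 0.957 to 1.69 on the other arrays. Lymphocyte markers had a median of 0.47 and epithelial markers, 4 of 5 measured, of 0.11, and both changed sign in some alternatives.

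**Figure D5:**
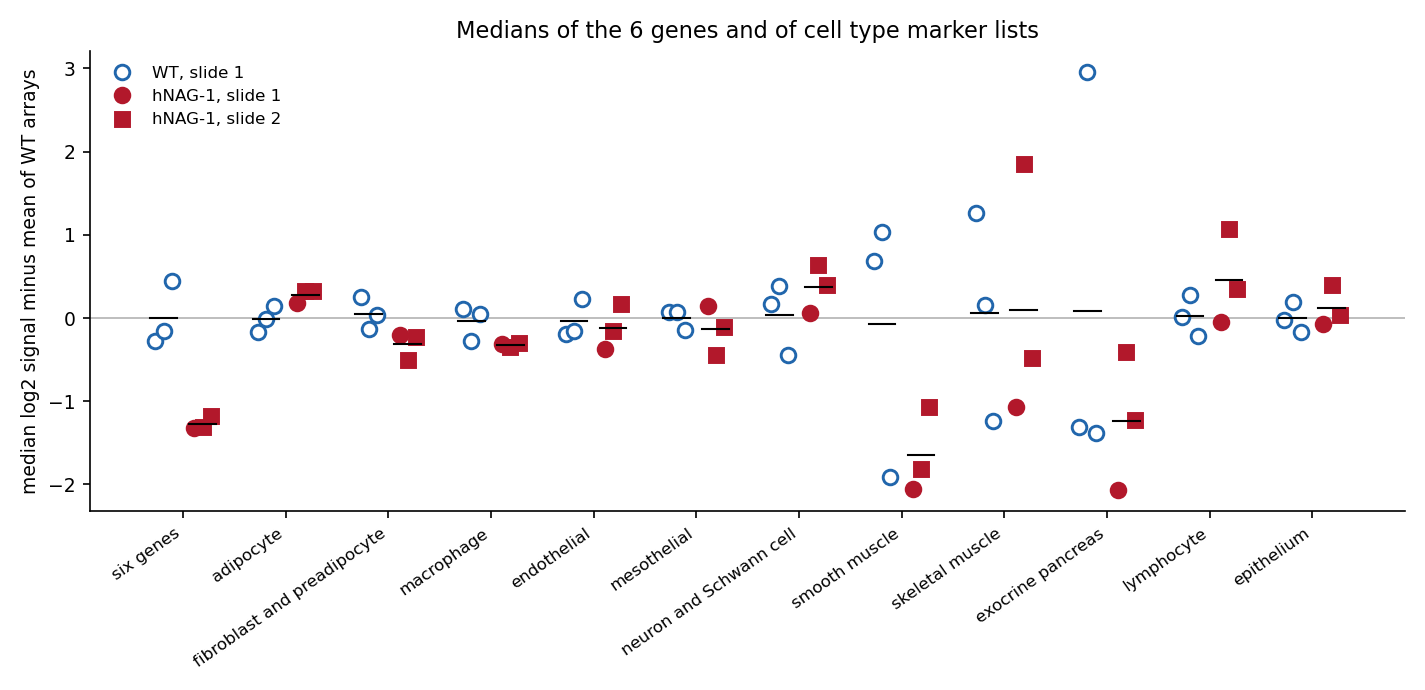
Median log2 signal minus the mean of the WT arrays (y axis) for the 6 genes (left) and 11 lists of cell type markers (x axis). Each point is 1 array (open, WT; filled, hNAG-1; square, the slide without WT), and short lines are means of 3 arrays; WT replicate 3 (the rightmost open point of each list) is the highest WT array for the 6 genes and lies with the hNAG-1 arrays for smooth muscle.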

How the data were processed

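RNA from abdominal WAT of female mice at 30 wk, in 3 pools of 2 mice per genotype, was hybridised to single-colour Agilent arrays. The authors deposited spot intensity for each array as scanner output, read with Agilent Feature Extraction 9.5 per the submitters' processing notes, in which the processed signal is background-subtracted. A deposited value table equals it in all 45018 rows, so no normalization between arrays had been made. After removal of 1639 control spots and of spots the scanner marked as outliers, replicate spots were averaged, and log2 was taken relative to the 75th percentile of each array. A probe was kept when well above background on 3 or more of the 6 arrays (31469 probes), and the brightest represents its gene. Accessions in a table of RefSeq genes (GRCm38) named 22951 of 41174 probes, symbols 6659 and synonyms 3109, and for 8455 the file's own name was used. Probe positions are on mm7. The number of arrays limits the precision.

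Genotypes were compared with lmFit and eBayes (limma 3.58.1, R 4.3.3) as a two-sided test. P-values were adjusted by Benjamini-Hochberg over all 21067 genes, at a threshold of 0.05, and the fit was tested on simulated data. The 6 genes and all lists were chosen with earlier results of these data known. Up to 3 genes of each list are named, by the largest moderated t, and for Mest, Sfrp5 and Bmp3 the 5 genes of the nearest pattern. Alternatives covered the normalization (quantile, or normexp with an offset of 50 and then quantile), 2 other filters for dim probes, the choice among probes of a gene, trended and robust variances, the slide (fixed block, random block, or the mixed slide only), a replicate block, the value table, and leaving out each array. Promoter windows are from RefSeq (GRCm38.p6). Results for some genes of the lists are not reported here.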

Additional observations from a re-analysis of the deposited data

How the results depend on the processing

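Over 18 alternatives, the differences of Mest, Bmp3, Npr3 and Sncg kept their sign and moved by less than the spread between replicates. The same held for Sfrp5 except under normexp (-0.99). Not all of the 18 could move a difference, so they are not 18 separate checks. The value table, the variance model, the replicate block and the filters left the differences of the 6 genes as they were. The choice among probes could change only Npr3, the gene with several probes. Trp53inp2 reversed to 0.26 on the mixed slide. The fit with the slide as a fixed block gave the same value, because a slide without WT arrays adds nothing to that estimate. With an array left out Trp53inp2 ranged from -0.41 to 0.083, the highest without WT replicate 3. The median of the 6 genes lay between -1.34 and -1.14 with an array left out and between -1.33 and -1.09 otherwise. Genes called at an adjusted p of 0.05 in limma numbered 0, but 39 higher and 15 lower with normexp and 107 higher and 23 lower with trended and robust variances. Genes lower at an unadjusted p of 0.05 numbered 860 of 21067. When each probe was its own feature the number was 1292 of 31469, where more features were tested. With an array left out it was 529 to 1242, the lowest without WT replicate 1. Deviations of same-numbered arrays correlated at 0.0975, 0.512 and 0.0952, which does not settle whether replicate numbers pair the arrays. In the fit with a replicate block the SE was 0.196 for Mest and 0.187 for Npr3, beside 0.302 and 0.392 without it. For Bmp3 it was 0.182 beside 0.185. With the replicate block the median of the 6 genes was -1.27, 0 genes passed the adjusted threshold and 922 were lower at the unadjusted one. The cause of these shifts was not tested. Signal over background limits Sfrp5 and the dim genes beside it.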
